A study of Caenorhabditis elegans with 2 samples.

Results

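The genes that encode the proteins of the cytosolic ribosome were examined as a group. The members were all protein-coding genes of the Ensembl WBcel235 annotation whose name starts with rpl-, rps- or rla- followed by a number. This rule found 81 of 19973 protein-coding genes. They comprised 50 genes of the large subunit (rpl- and rla-) and 31 of the small subunit (rps-). For each gene the best-ranked immunoprecipitated region was taken whose summit lay from 1000 bp upstream to 200 bp downstream of a transcript start.

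The study mapped binding of the tagged factor HLH-13 by chromatin immunoprecipitation with an antibody to GFP and sequencing (ChIP-seq) in whole Caenorhabditis elegans embryos. HLH-13 is a basic helix-loop-helix transcription factor, a class that binds E-boxes of the form CANNTG. There was 1 group of 2 biological replicates, both of strain OP744. It carries wgIs744, an integrated transgene of hlh-13 joined to TY1, EGFP and 3xFLAG, with the tags at the C-terminus of the factor. The transgene also holds unc-119(+), in animals mutant for that gene, unc-119(tm4063). Embryos were late stage, aged 3.5 hours, pooled over the sexes and collected by bleaching of eggs. All cells of the embryo entered each chromatin preparation, so cells that express the factor were not separated from the rest. The labels name no untagged strain and no second condition as a group, so no conditions were compared. The comparisons below are between the replicates, between the subunits and with all protein-coding genes.

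Each cytosolic ribosome joins a small subunit, which reads the messenger RNA, to a large subunit, which forms peptide bonds. Ribosomal proteins are made in nearly equal amounts and in all growing cells, and their genes are among the most highly expressed in an embryo. The rla genes encode the acidic proteins of the stalk, on which elongation factors act. In C. elegans many messenger RNAs receive a spliced leader by trans-splicing. The annotated start of such a gene is often the splice acceptor, and transcription can begin further upstream.

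The deposited lists hold 30000 candidate regions for each replicate and 30000 for both replicates pooled. The 423 pooled candidates of highest signal form the authors' optimal set. Signal is the authors' own value per region and has no stated scale. It ran from 25.5 to 668 in the pooled list with a median of 34.2. In the 2 replicate lists the medians were 19.4 and 20.5. Signal was read only within a list. At the tagged gene itself, hlh-13, the best pooled region ranked 19688, the best of replicate 1 ranked 9140, and replicate 2 held none. Candidate lists reach far into background, so a candidate alone is a weak statement.

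The sequences under 8 of the 11 optimal peaks at ribosomal protein genes are shown first, since the positions below refer to them. The other 3 genes, rps-19, rps-20 and rpl-24.2, are named only. Each sequence covers up to 75 bp on either side of the pooled summit and is written 5′ to 3′ on the strand of the ribosomal protein gene. Sequence is from the RefSeq copy of WBcel235, the assembly also called ce11. Capitals mark TACGGTA and GCGCTCCA on either strand. Both words were noticed in these summits, so their counts below are descriptions with no test. The rpl-3 sequence is chrIII:3867500-3867650 on the plus strand. That of rpl-20 is chrIV:4749989-4750139 (minus), that of rps-23 is chrIV:12391244-12391394 (minus) and that of rpl-43 is chrII:14154458-14154608 (plus).
rpl-3: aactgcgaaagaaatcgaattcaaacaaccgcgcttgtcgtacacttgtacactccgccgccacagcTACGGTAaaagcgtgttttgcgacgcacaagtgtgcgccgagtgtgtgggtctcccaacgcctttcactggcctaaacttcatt
rpl-20: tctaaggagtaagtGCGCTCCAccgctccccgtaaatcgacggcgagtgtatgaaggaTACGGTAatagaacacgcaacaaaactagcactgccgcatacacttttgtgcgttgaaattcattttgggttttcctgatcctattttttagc
rps-23: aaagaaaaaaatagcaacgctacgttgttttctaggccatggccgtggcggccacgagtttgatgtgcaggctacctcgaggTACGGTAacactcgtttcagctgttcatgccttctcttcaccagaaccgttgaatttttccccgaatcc
rpl-43: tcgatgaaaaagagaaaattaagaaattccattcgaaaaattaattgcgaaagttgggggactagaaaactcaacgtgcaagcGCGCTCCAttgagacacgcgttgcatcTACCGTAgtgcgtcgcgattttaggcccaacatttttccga
In rpl-3 the word TACGGTA begins 8 bp upstream of the summit, and in rps-23 it begins 7 bp downstream of it. In rpl-20 it begins 17 bp upstream of the summit. In rpl-43 it lies on the opposite strand and its first printed base is 35 bp downstream of the summit. The word GCGCTCCA begins 8 bp downstream of the summit in rpl-43 and 61 bp upstream of it in rpl-20.

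The next sequences are shown to set these against peaks without TACGGTA. The rps-24 sequence is chrIV:385219-385369 (plus), that of rps-28 is chrIV:1659152-1659302 (plus) and that of rpl-15 is chrIV:654878-655028 (minus). The rpl-12 sequence, chrIV:13240652-13240757 (minus), was trimmed before the first exon and is 106 bp long.
rps-24: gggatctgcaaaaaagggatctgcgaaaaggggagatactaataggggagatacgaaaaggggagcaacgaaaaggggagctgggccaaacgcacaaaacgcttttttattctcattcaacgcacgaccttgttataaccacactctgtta
rps-28: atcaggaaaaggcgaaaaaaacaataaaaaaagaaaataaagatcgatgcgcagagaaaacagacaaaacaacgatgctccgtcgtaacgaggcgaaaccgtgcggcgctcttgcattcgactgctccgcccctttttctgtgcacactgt
rpl-15: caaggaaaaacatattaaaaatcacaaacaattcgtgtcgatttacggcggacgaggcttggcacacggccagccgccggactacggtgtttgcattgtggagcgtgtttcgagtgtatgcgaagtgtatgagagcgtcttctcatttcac
rpl-12: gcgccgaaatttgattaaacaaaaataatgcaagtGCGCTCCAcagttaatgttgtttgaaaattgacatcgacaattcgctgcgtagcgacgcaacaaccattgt
In rpl-12 the word GCGCTCCA begins 40 bp upstream of the summit. It shares a base with the E-box CAAGTG just before it. The rps-24 sequence holds short repeated units, and 68.6% of the 32-base words around its summit occur once in the genome.

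For contrast, the summits of 2 members with low-ranked candidates are shown. These were rps-2, at pooled rank 24377, and rpl-7A, at pooled rank 21189. Neither sequence overlaps an exon. The rps-2 sequence is chrIV:7926609-7926747 (minus) and that of rpl-7A is chrIV:4390650-4390800 (minus).
rps-2: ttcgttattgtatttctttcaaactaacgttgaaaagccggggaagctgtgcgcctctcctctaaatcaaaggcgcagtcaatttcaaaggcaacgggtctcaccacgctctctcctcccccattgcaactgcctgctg
rpl-7A: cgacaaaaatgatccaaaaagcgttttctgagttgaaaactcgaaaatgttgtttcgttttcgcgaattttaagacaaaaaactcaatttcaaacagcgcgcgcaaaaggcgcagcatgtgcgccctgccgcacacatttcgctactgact
Neither holds a marked word.

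Ribosomal protein genes had regions in their promoter windows more often than protein-coding genes as a whole, and the ratio was larger in the optimal set than among all candidates. An optimal peak lay in the window of 11 of the 81 genes (13.6%, 95% Wilson interval 7.76 to 22.7). The same held for 1.32% of all protein-coding genes, 264 of 19973. With each region given only to the gene with the nearest start, 7 members had an optimal peak, against 0.946% of all genes. A pooled candidate of any rank was found at 62 members (76.5%, interval 66.2 to 84.4), against 38.4% of all genes. So high a background share limits how large the ratio can be there, so the ratios of the optimal set and of all candidates are not directly comparable. The best 1000 pooled regions reached 16 members (19.8%), against 2.93% of all genes. The better part of the optimal set, its first 211 regions, reached 5 members, against 0.596% of all genes. No test was made of these shares, since the genes were grouped with results of these data known.

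The large and the small subunit did not differ beyond the intervals of their shares. An optimal peak was found at 6 of 50 large subunit genes (12%, interval 5.62 to 23.8) and at 5 of 31 small subunit genes (16.1%, interval 7.09 to 32.6). Pooled candidates were found at 37 large subunit genes (74%, interval 60.4 to 84.1) and 25 small subunit genes (80.6%, interval 63.7 to 90.8). These intervals overlap widely, and with so few genes a moderate difference could be missed. In replicate 1 candidates were found at 68% of large subunit genes (interval 54.2 to 79.2) and 87.1% of small subunit genes (interval 71.1 to 94.9). The overlap of the intervals is narrower there. In replicate 2 the shares were 70% and 77.4%. The difference between the subunits was not tested. The 3 stalk genes stood low in the list. Of these, rla-2 ranked 8042 and rla-1 ranked 22946, and rla-0 had no candidate in any of the 3 lists.

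Below the optimal set the members spread over the whole list. Ranks 424 to 1000 held 5 members (6.17%, against 1.61% of all genes) and ranks 1001 to 5000 held 9 (11.1% against 6.83%). Ranks 5001 to 10000 held 15 (18.5% against 7.27%) and ranks 10001 to 20000 held 16 (19.8% against 11.6%). The last 10000 ranks held 6, a share of 7.41% that was below the 9.75% of all genes. The 62 members with a candidate had a median rank of 7316 and a median signal of 42.4. Over the 7662 protein-coding genes with a candidate the median rank was 11636 and the median signal 37.2. The remaining 19 members had no pooled candidate, a share of 23.5% against 61.6% of all genes.

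**Figure D1:**
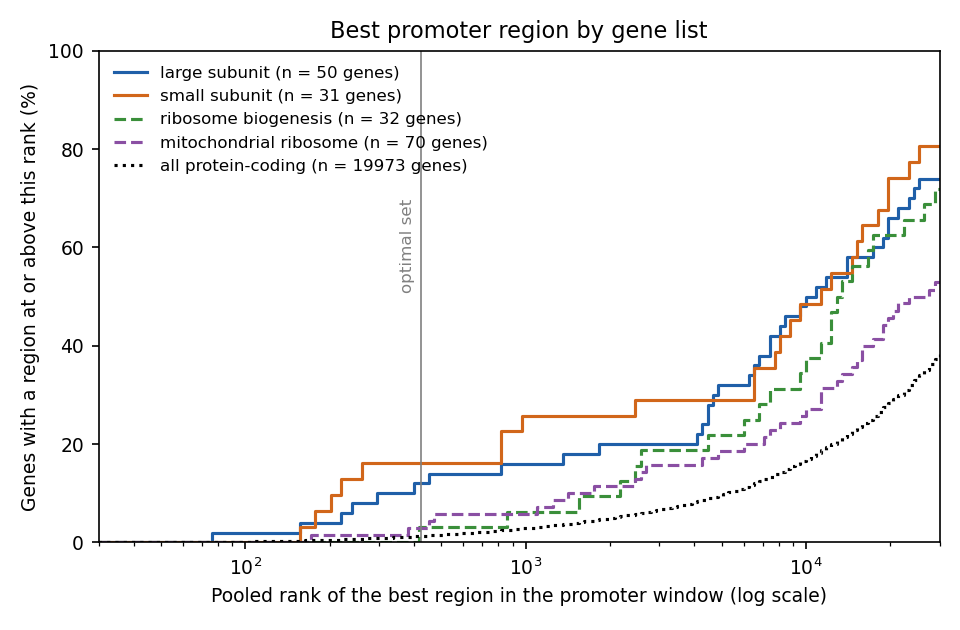
Share of genes, in percent, whose best promoter region has at least the pooled rank on the log-scaled horizontal axis, for 5 gene lists. The vertical line is rank 423, the last of the optimal set; there the large subunit stood at 12%, the small subunit at 16.1% and all protein-coding genes at 1.32%.

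The other ribosome lists had few optimal peaks. Mitochondrial ribosomal proteins, which make up the separate ribosome of that organelle, had 2 among 70 genes (2.86%, interval 0.787 to 9.83). Ribosome biogenesis genes, whose products process ribosomal RNA and assemble subunits, had 1 among 32 genes (3.12%, interval 0.554 to 15.7). Both intervals include the 1.32% of all genes, and both overlap the 7.76 to 22.7 of the cytosolic ribosomal protein genes. That of the biogenesis genes also includes the 13.6% of the cytosolic list. Neither list had a gene among the best 423 regions of both replicates, against 0.666% of all genes. The intervals, 0 to 5.2% for the mitochondrial list and 0 to 10.7% for the biogenesis list, include that share. Candidates were found at 37 mitochondrial ribosomal protein genes (52.9%) and at 23 biogenesis genes (71.9%). The candidate share of the biogenesis genes was thus close to that of the cytosolic ribosomal proteins.

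The gene rpl-3 had the strongest region of the group. It encodes protein L3, which lies beside the peptidyl transferase centre of the large subunit. Its peak ranked 76 in the pooled list with signal 196. In replicate 1 its signal was 115 and its rank 45, and in replicate 2 its signal was 79.1 and its rank 124. It was the best-ranked member in both replicates. The region was 110 bp wide, narrower than the usual 370 bp, and its summit lay 279 bp upstream of the start.

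The next optimal peaks all belonged to genes with a head-to-head neighbour. The small subunit gene rps-19, whose human counterpart is mutated in Diamond-Blackfan anaemia, had signal 134 at rank 152. Its replicate signals were 69.5 and 67.9, at rank 160 in each. The large subunit gene rpl-20 had signal 133 at rank 155. Its replicate signals were 72.2 and 59.4, at ranks 148 and 219. The gene rps-23, which encodes a protein of the decoding centre, had signal 125 at rank 178. Its replicate signals were 64.6 and 54.2, at ranks 188 and 287. The gene rps-20, which encodes a protein of the small subunit head, had signal 117 at rank 202. Its replicate signals were 47.7 and 63.4, at ranks 405 and 189. All 4 summits lay between 252 and 286 bp upstream of the ribosomal protein gene.

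In a middle group the regions lay at less uniform distances. The gene rps-24, needed in human cells to mature small subunit RNA, had signal 114 at rank 212. Its replicate ranks were 355 and 173, and its summit lay 593 bp upstream. The gene rpl-43, which encodes a zinc-binding protein of the large subunit, had signal 113 at rank 214. Its replicate ranks were 397 and 171, and its summit lay 761 bp upstream. The gene rpl-24.2, whose human counterpart acts in ribosome assembly, had signal 109 at rank 232. It is counted with the large subunit by its name alone. Its replicate ranks were 358 and 232. Its summit lay 146 bp upstream and inside an intron of C03D6.1, which runs on the opposite strand.

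The last optimal peaks were nearest to the limit of the set. The gene rps-28, whose protein lies near the exit of the messenger RNA channel, had signal 106 at rank 251. Its replicate ranks were 229 and 230, and its summit lay 464 bp upstream. The large subunit gene rpl-15 had signal 100 at rank 290. Its replicate ranks were 534 and 294, and its summit lay 377 bp upstream. The gene rpl-12, which encodes a protein at the base of the stalk, had signal 87.9 at rank 386. Its replicate ranks were 545 and 491, and its summit lay 31 bp upstream. The optimal set ends at signal 85.3.

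Just outside it stood rpl-35, at rank 450 with signal 83.7. It encodes a protein beside the exit tunnel of the large subunit. This member rests on replicate 2, where its signal was 62.1 and its rank 195. In replicate 1 its signal was 15.3 and its rank 26457, near the end of that list. The gene rps-26, for another protein of the messenger RNA exit, followed at rank 790. In replicate 1 its best region lay 941 bp upstream at rank 3543, and in replicate 2 it lay 390 bp upstream at rank 690. The genes rpl-39 and rps-30 shared a region at rank 792. The small subunit gene rps-4 ranked 966, with ranks of 1149 and 2043 in the replicates and summits 2 bp apart.

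The further members named are rpl-22 at rank 1337, rpl-34 at 1809 and rps-15 at 2390. After these came rpl-17 at 4004, rpl-31 at 4116, rpl-9 at 4287, rpl-38 at 4445, rpl-23 at 4541 and rpl-13 at 4808. Their pooled signals ran from 62.1 for rpl-22 to 47.0 for rpl-13. Those values lie above the 37.2 median of all genes with a candidate and below the limit of the optimal set. In replicate 2 rpl-38 had no candidate and rpl-23 ranked 26727, and in replicate 1 rpl-9 ranked 28368. The replicate summits were 883 bp apart at rpl-31, 930 bp at rpl-13 and 156 bp at rpl-22. They were 22 bp apart at rpl-17 and rpl-23, 23 bp at rpl-9, 60 bp at rpl-34 and 62 bp at rps-15. Of the 10 members whose name carries a further number or letter, most of them paralogous copies, rpl-24.2 alone had an optimal peak. Of the others rpl-41.1 ranked 8227, rpl-24.1 ranked 9412, rpl-11.1 ranked 13491 and rpl-36.A ranked 13624. The genes rpl-41.2, rpl-25.1 and rpl-7A ranked 18915, 19259 and 21189, and rpl-11.2 and rpl-25.2 had no pooled candidate.

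The replicates were then set side by side. Replicate 1 had a candidate at 61 members, against 39.4% of all genes, and replicate 2 at 59, against 37.8%. Each replicate had one at 48 members (59.3%), against 23.4% of all genes. With each region given only to the gene with the nearest start, this fell to 24 of 81 members, against 19.6% of all genes. A further 13 of 81 members had a candidate in replicate 1 only and 11 in replicate 2 only. Over all genes these were 3187 and 2875 of 19973, nearly the same shares. Among the best 423 regions of each list stood 9 members in replicate 1 (background 1.31%) and 11 in replicate 2 (background 1.23%). The 9 members of replicate 1 were all among the 11 of replicate 2. That share, 11.1%, stands against 0.666% of all genes in the best 423 of both replicates. Under the nearest-start rule it was 4 members, against 0.471% of all genes. Of the 11 optimal members, rpl-15 was outside the best 423 of replicate 1 and rpl-12 was outside them in both. Both replicate lists were called against the same control library, whose part in this overlap was not tested.

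At the optimal peaks of members the summits of the 2 replicates lay close together. The optimal set was itself chosen with both replicate lists, so closeness there is in part built in. Over the 11 optimal members the summits of the replicates were a median of 16 bp apart, with a range of 5 to 57 bp, and 9 were within 50 bp. Over the 37 lower-ranked members with a region in each replicate the median was 187 bp, and 11 were within 50 bp (29.7%). The same figures over all protein-coding genes were 21 bp for 263 genes with an optimal peak and 191 bp for the other 4413. Members thus showed nearly the same split as all genes. The best region of each replicate was taken on its own. The 2 summits of a lower-ranked member can therefore belong to different regions, up to 1087 bp apart. The Spearman correlation of signal across the 48 members was 0.542, and without the optimal members it was 0.0622. Without them it was 0.48 over 17 small subunit genes and -0.262 over 20 large subunit genes, and 0.249 over all protein-coding genes without an optimal peak. These are descriptions across genes of the same 2 libraries.

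**Figure D2:**
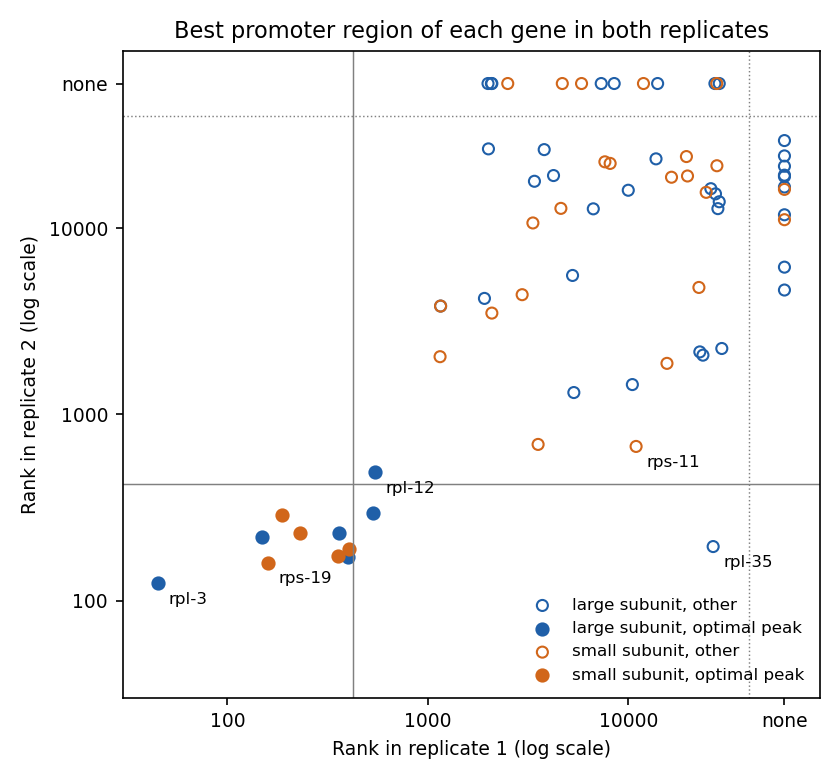
Rank of each member's best promoter region in replicate 1 and in replicate 2, both on log scales, with members that had no region in a replicate at the line marked none. Solid lines mark rank 423; filled points are the 11 members with an optimal peak, which sit together at the lower left, while rpl-35 ranked 195 in replicate 2 and 26457 in replicate 1.

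A region was missing from all 3 lists at 9 members (11.1%), against 44.4% of all genes. These were rla-0, rpl-6, rpl-10, rpl-11.2, rpl-18, rpl-26, rpl-42, rps-17 and rps-25. The other 10 members without a pooled candidate were rpl-19, rpl-21, rpl-25.2, rpl-27, rpl-36, rpl-37, rps-0, rps-12, rps-21 and rps-27. Among these, rpl-36 had the best replicate rank, 2083 in replicate 1, through a region it shared with rps-14. The gene rps-0 had candidates in both replicates, at ranks 3337 and 10688, but their summits were 463 bp apart.

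Most member summits lay upstream of the annotated start, where the window reaches furthest. The median distance over the 62 members was 332 bp upstream, with quartiles of 225 and 581 bp. Over all genes with a candidate the median was 291 bp. The medians of members and all genes were 371 and 314 bp in replicate 1. They were 279 and 308 bp in replicate 2, so the order was not the same in each replicate. In the pooled list 4 summits were downstream of the start (6.45%), against 18.2% over all genes with a candidate. In replicate 1 they were 9 of 61 (14.8%, against 18.3%) and in replicate 2 they were 5 of 59 (8.47%, against 18.7%). The medians of the large and small subunit genes were 288 and 341 bp, well within their spread. A band from 200 to 300 bp upstream, chosen after the positions were seen, held 15 member summits (24.2%) against 10.3% for all genes. It held 5 of the 11 optimal peaks of members (45.5%), against 18.9% for all genes with an optimal peak. Those were the peaks of rpl-3, rps-19, rpl-20, rps-23 and rps-20, the 5 with the highest pooled signal.

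**Figure D3:**
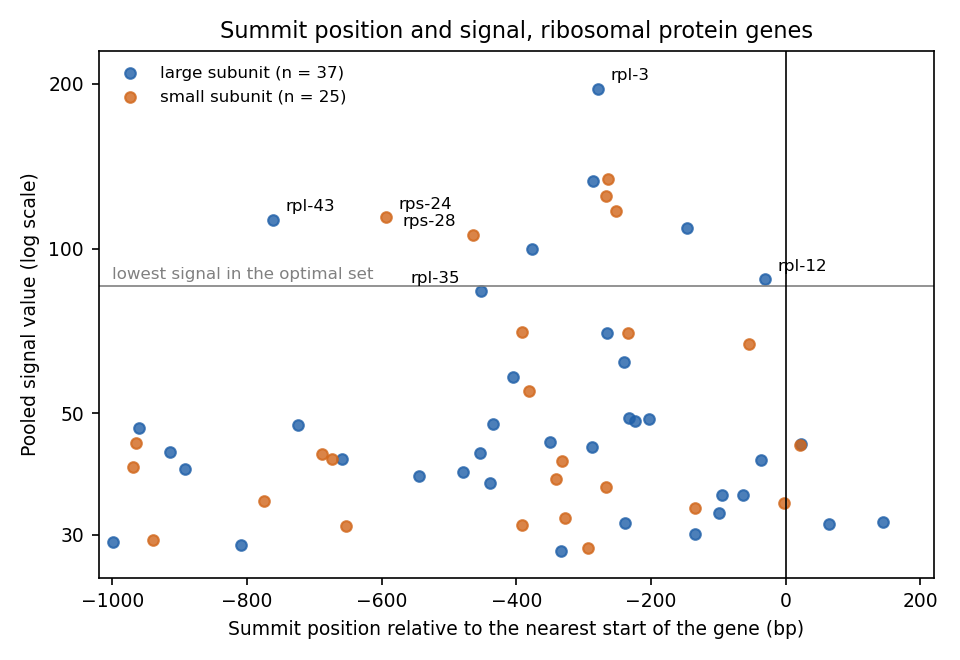
Pooled signal, on a log scale, against the position of the summit relative to the nearest start of the gene, in bp with negative values upstream, for the 62 members with a candidate. The horizontal line is the lowest signal of the optimal set, 85.3; the 5 highest points lie 252 to 286 bp upstream, and rpl-12 lies 31 bp upstream.

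Optimal summits at members lay between genes, with the exception of rpl-24.2. Of the 11 optimal regions, 10 had the summit between coding genes (90.9%), against 76.7% of the 189 optimal regions in the windows of all genes. None lay in an exon. Of the 50 distinct lower-ranked regions at members, 20 lay in an exon (40%), against 31.9% over all genes. Ribosomal protein genes are short, with a median length of 754 bp against 2027 bp for all protein-coding genes. No member summit was within 100 bp of a tRNA, snoRNA or snRNA gene. Over all genes this held for 1.61% of those with a candidate and for 65 of 264 with an optimal peak (24.6%). Yet 13 members contain a snoRNA gene (16%), against 0.961% of all genes. Around 60 of the 62 summits every 32-base word occurred once in the genome.

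Many member summits could belong to another gene. Of the 62 best regions, 40 also lay in the promoter window of another protein-coding gene (64.5%, interval 52.1 to 75.3), against 26% over all genes with a candidate. Among the optimal peaks this held for 8 of 11 (72.7%, interval 43.4 to 90.3), against 54.5% over all genes with an optimal peak. Ribosomal protein genes more often have a head-to-head neighbour within 1000 bp, at 48 of 81 genes (59.3%) against 17.5% of all genes. Neither trait was particular to them. Of the ribosome biogenesis genes 59.4% had such a neighbour, and 65.2% of their best regions were shared. For mitochondrial ribosomal protein genes these shares were 37.1% and 54.1%. The share of members with an optimal peak was above that of all genes in each arrangement. It was 7 of 48 with a head-to-head neighbour (14.6% against 3.4%). It was 2 of 25 with a neighbour on the same strand (8% against 0.755%), and 2 of 8 with neither (25% against 0.946%).

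The 7 head-to-head neighbours at optimal peaks had various functions. The gene hsr-9, a homolog of a DNA damage response protein, starts 445 bp from rps-19. The gene dpm-3, for a subunit of a mannosyltransferase of the endoplasmic reticulum, starts 534 bp from rps-23. The gene ekl-4 starts 397 bp from rps-20. The gene lin-54, which encodes the DNA-binding subunit of a complex that represses cell-cycle genes, starts 393 bp from rpl-12. The other 3 were Y17G9B.5, 462 bp from rpl-20, Y48B6A.1, 921 bp from rpl-43, and K11H12.8, 814 bp from rpl-15. At rps-28 the window was shared with Y41D4B.4, on the same strand. The summit was nearer to the other gene at rps-19, rpl-20, rps-20 and rpl-43. It was nearer to the ribosomal protein gene at rps-28, rpl-15 and rpl-12. At rps-23 the pooled summit was nearly midway, 266 bp from rps-23 and 268 bp from dpm-3. The replicate summits lay 286 and 270 bp upstream of rps-23, so both were nearer to dpm-3. The count of 7 optimal members under the nearest-start rule includes rps-23. The peaks of rpl-3, rps-24 and rpl-24.2 were in the window of no other coding gene. Which gene such a peak acts on was not tested.

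Ribosomal protein genes also neighbour each other. The genes rpl-39 and rps-30, which encode a protein of the exit tunnel and a small subunit protein made as a fusion to a ubiquitin-like protein, are head to head with 498 bp between them. Their region had pooled signal 70.2, with signals of 36.2 and 29.7 in the replicates. The genes rps-10 and rpl-24.1 are 609 bp apart and rps-14 and rpl-36 are 662 bp apart, also head to head. The genes rpl-41.1 and rpl-41.2 lie on the same strand, 699 bp apart. No optimal peak lay at any of these pairs.

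**Figure D4:**
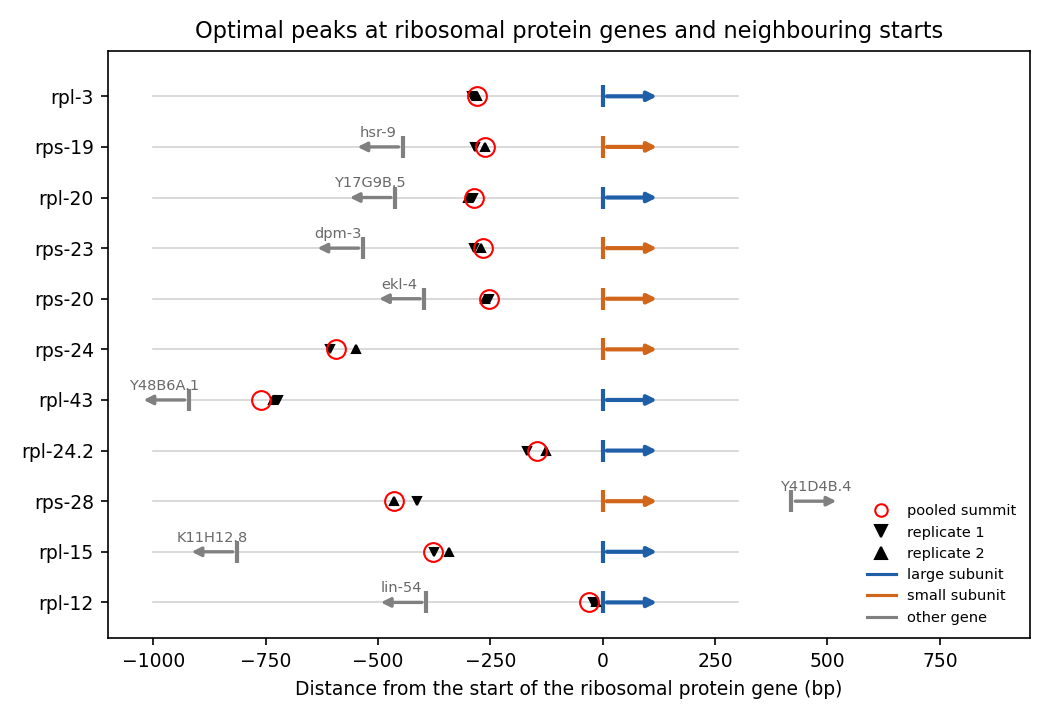
Map of the 11 optimal peaks at ribosomal protein genes, drawn by distance in bp from the start of the ribosomal protein gene, whose arrow points right from 0. Circles are pooled summits, triangles the summits of the 2 replicates, and grey arrows the starts of other coding genes whose window holds the summit; the 2 replicate summits lie within 57 bp of each other in every row.

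On chromosome IV, 6 of 18 members had an optimal peak (33.3%), against 1.07% of all genes there. Chromosome I had 3 of 25 (12%, against 2.02%). Chromosome II had 1 of 10 (10%, against 1.1%) and chromosome III had 1 of 18 (5.56%, against 2.16%). The 8 members on chromosome V and the 2 on chromosome X had none. With so few genes this spread over chromosomes is a description only.

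The share of member summits with an E-box was near that of all genes within 50 bp and lower within 100 bp. CANNTG, counted on both strands within 50 bp of the summit, was present in 19 of the 61 distinct member regions (31.1%). Over the 6720 distinct best regions of all genes the share was 34.6%. Within 100 bp the shares were 45.9% at members and 56.1% over all genes. It was present within 50 bp in 5 of the 11 optimal regions (45.5%) and in 50 of 178 optimal regions of other genes (28.1%). Within 100 bp these were 6 of 11 (54.5%) and 85 of 178 (47.8%), a smaller difference. The 5 with an E-box within 50 bp were those of rpl-3, rps-19, rps-23, rps-20 and rpl-12. The form CAAGTG was present at 2 of the 11, rpl-3 and rpl-12, and at 0 of the 50 lower-ranked member regions. It was present at 9.55% of optimal regions of other genes and at 4.7% of the best regions of all genes. Within 100 bp CAAGTG was present at 2 of the 11 and 3 of the 50, against 9.18% over all genes. Within 50 bp the form CACATG was present at 0 of the 11 and 3 of the 50, against 3.42% over all genes. The form CAGCTG was present there at 1 of the 11 and 3 of the 50, against 2.47%.

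The word TACGGTA, counted on both strands, was present near the summit, within 50 bp, at 5 of 11 members with an optimal peak. These were rpl-3, rpl-20, rps-23, rps-20 and rpl-43. It was present in 5 of 50 lower-ranked member regions (10%), in 0 of 178 optimal regions of other genes (3 of 178 within 100 bp) and in 1.56% of the best regions of all genes. In the 300 bp upstream of the most upstream start it was present at 11 of 81 members (13.6%), against 4.41% of all genes. Across all pooled regions, within 75 bp of the summit, its share did not rise with rank. It was present in 7 of the 423 optimal regions (1.65%) and in 2.28% of the last 10000. The word GCGCTCCA was present within 50 bp at 2 of the 11 summits, and within 100 bp at 3, those of rpl-20, rpl-43 and rpl-12. Within 100 bp it was present at 1.69% of optimal regions of other genes and at 1.73% of the best regions of all genes. Across all pooled regions, within 75 bp of the summit, it was present in 1.89% of the optimal set and in 0.76% of the last 10000. The share of bases that are G or C within 50 bp of the summit had a median of 48.5% at optimal peaks of members and 49.5% at those of other genes. It was 46.5% at lower-ranked member regions and 41.6% over all genes.

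The sequence directly before the annotated start resembled a trans-splice acceptor at many ribosomal protein genes. The letters TTTCAG, the core of the acceptor in this species, stood directly before the most upstream start of 40 of 81 members (49.4%), against 12.3% of all genes. The last 2 letters, AG, stood there at 69 members (85.2%), against 27.6%. The other ribosome lists had similar shares. TTTCAG stood there at 43.8% of biogenesis genes and 35.7% of mitochondrial ribosomal protein genes, and AG at 78.1% and 77.1%. Among the members, TTTCAG stood there at 6 of 11 with an optimal peak (54.5%), 27 of 51 with a lower-ranked candidate (52.9%) and 7 of 19 with no pooled candidate (36.8%). AG stood there at 72.7%, 90.2% and 78.9% of these. Where transcription begins and whether these starts are trans-spliced was not measured.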

How the data were processed

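Chromatin immunoprecipitation sequencing was done on 2 biological replicates of 1 strain, with sonicated chromatin. Per the deposited file manifests, each replicate's list came from that replicate's alignments and 1 common control library. The pooled list came from both replicates. The irreproducible discovery rate over these 3 lists gave the optimal set. Per the labels, ce11 was the assembly. For aligner, caller and threshold of the rate, names and values were not given in the sources used here. Signal in the deposited files is the authors' own value per region and was used only to rank and describe regions within a list. The deposited −log10 q-values have a pooled maximum of 2.36 and were not used to rank. The lists hold no read counts, so depth is unknown. There were 0 columns without a sample.

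Starts came from all transcripts of protein-coding genes in Ensembl release 115. Each gene took the region of highest signal whose summit lay in its window. Motifs were read from the RefSeq genome. Members, lists and the rule for named genes were chosen with earlier results of these data known. The rule took all optimal members, members in rank order up to 25, members with a suffix in the name, the partners at optimal peaks and the best 3 members of each replicate. A few further members are named because they stood out or to account for every gene without a candidate. Of 37 biogenesis names, 32 matched. The choice of TACGGTA, GCGCTCCA and the 200 to 300 bp band followed inspection of the data. Shares carry 95% Wilson intervals, which cover the number of genes only, and no p-value was computed. Genes that share a region are not independent.

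The assignment was tested on simulated data over 19973 genes: 200 of 200 planted regions were recovered, and 300 of 300 regions matched a direct search. Python 3.11.15, numpy 2.4.6, matplotlib 3.10.9, pandas 2.3.3 and statsmodels 0.14.6 served for all steps. Alternatives varied the window, the starts, the rule for shared regions, the size of the best set, the motif window and the members.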

Additional observations from a re-analysis of the deposited data

How the results depend on the processing

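Of 125 values recomputed under 16 alternatives, 12 moved. A count moved if it changed by over 1.5 times, and a share or median if it left the 95% interval of its reported value. Where a region was given only to the gene with the nearest start, 44 members had a candidate (34.1% of all genes) in place of 62, and 7 had an optimal peak (0.946%). A candidate in both replicates was found at 24 (19.6%), and 4 were among the best 423 of both (0.471%). The share of shared regions is 0 by construction there and was not computed. In the better part of the optimal set, its best 211 regions, 5 members remained in place of 11 (0.596% of all genes). The large subunit share was then 4%, and 2 members were in the best 211 of both replicates (0.365% of all genes). With a window from 500 bp upstream the median position was −263 bp and 49% of regions were shared. With one from 2000 bp the median position was −458 bp. Counting any overlap with the window made 76.5% of regions shared. E-boxes were within 100 bp of 45.9% of summits and within 25 bp of 19.7%, against 56.1% and 19.2% over all genes. With either replicate alone, 59 to 61 members had a candidate and 9 to 11 were in the best 423. The median rank was then 5341 to 6186, the large subunit share 8% to 12% and the small subunit share 16.1% in both. The median position was −371 to −279 bp, the shared part 62.3% to 67.8% and the E-box part 29.3% to 33.9%. Results that need both replicates have no such value. Starts of coding transcripts only, and members with fully unique sequence, were alternatives chosen after seeing the data and moved no value. No paired analysis was possible because the replicates form 1 group. Depth is unknown, so no lower limit of detection can be given for members without a region.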

Other observations

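In the 300 bp upstream of the most upstream start, 6-base words were counted on both strands. The 10 whose share in members most exceeded that in all genes are given. They were chosen by these data and were not tested. CCTAAA was present at 40 of 81 members (49.4%), against 13.1% of all genes, and CGAAAA at 74.1% against 42.5%. The overlapping words GCCTAA and GGCCTA were present at 29.6% and 27.2%, against 6.53% and 4.7%. AGCGAA was present at 32.1% of members against 10.5% of all genes. ACGAAA was present at 54.3% against 25.8%, AAATCG at 56.8% against 29.3% and CTGAAA at 72.8% against 48%. AAAATC was present at 80.2% against 55.9% and CTAAAA at 55.6% against 34.8%. Among the 11 members with an optimal peak and the 19 without a pooled candidate, AGCGAA was present at 5 and 1 and CCTAAA at 4 and 10. In the same order CGAAAA was present at 9 and 12, GCCTAA at 2 and 7, and GGCCTA at 2 and 4. ACGAAA was present at 5 and 12 of them, AAATCG at 7 and 9, CTGAAA at 9 and 12, AAAATC at 8 and 14, and CTAAAA at 5 and 12.

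A further 3 genes of the ribosome fall outside the name rule. The genes ubl-1 and ubq-2, which encode ribosomal proteins fused to ubiquitin or a ubiquitin-like protein, ranked 6955 and 18721 in the pooled list. The gene rack-1, for a scaffold protein of the small subunit, had no pooled candidate. The optimal peaks in the other ribosome lists were at mrpl-23, rank 169, mrpl-12, rank 382, and fib-1, rank 414. The gene fib-1 encodes fibrillarin, the methyltransferase of ribosomal RNA, and its summit lay 67 bp upstream of the start.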
